A study of Homo sapiens with 8 samples.

Results

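The genes described here are 10 that build or regulate the cytoskeleton of the growth cone, the motile tip of an extending neurite: the stathmins STMN1, STMN2, STMN3 and STMN4, the growth-cone membrane protein gene GAP43, the microtubule-associated protein genes MAP1B, MAP2 and DCX, and the collapsin response mediator protein (CRMP) genes DPYSL2 and DPYSL3. They were chosen by name as neuronal differentiation and neurite genes, and each matched exactly 1 of the 60651 rows of the deposited table. All 10 reached a mean of 1 TPM (a level divided by transcript length and scaled to the same sum in every library) and were among the 11778 genes tested. The samples were 8 ribosome-profiling libraries of IMR32, a human neuroblastoma cell line with amplified MYCN, labelled wild type and grown in complete RPMI medium. Of these, 4 came from cells treated with CR31B, a silvestrol analogue of the rocaglate class that binds the RNA helicase eIF4A, and 4 from cells given the solvent DMSO at 0.1%. Every culture received cycloheximide after 6 h, just before harvest, and the design text calls the 4 libraries of each group biological replicates. The dose of CR31B is not given in the sources used here.

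Growth cones advance by assembling microtubules and actin behind and beneath the membrane. Stathmins bind tubulin dimers and promote microtubule disassembly, whereas MAP1B, MAP2 and doublecortin (DCX) bind the microtubule lattice, and CRMPs carry tubulin and relay semaphorin signals. GAP43 lies under the growth-cone membrane, binds calmodulin and is a protein kinase C substrate. eIF4A unwinds the 5′ untranslated region (5′ UTR) of mRNAs for the scanning ribosome, and rocaglates are known to clamp it onto purine-rich RNA.

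Because of that property, the purine runs in the annotated 5′ UTRs were examined. The stretches below show how unlike each other some of the 10 genes are in this respect. Each is 30 bases of the sense strand of a GENCODE 29 transcript, 5′ to 3′, with the purines of the longest uninterrupted run in capitals. GAP43 and STMN3 lie at the extremes of the 10, DPYSL3 has a long run, MAP2 has a run somewhat above the usual length, and STMN1 one near it. DPYSL2 (a run of 22), MAP1B, DCX, STMN2 and STMN4 are not shown.
GAP43 (bases 53 to 82 of the 5′ UTR, the first 30 bases of a run of 40): GGGGGGAAGGAGAAAAAAGGAGAAGAGAGG
DPYSL3 (bases 27 to 56, a run of 19): gggatAAGAGAGAAGAGGGAGGAGtcgcag
MAP2 (bases 387 to 416, a run of 12): cagaaaattAAAAGAAAGAAGccagaaaat
STMN1 (bases 20 to 49, a run of 7): ggggtgccgtcGAGGAGAcaatagggggcg
STMN3 (bases 48 to 77, a run of 3): ctccagcctccgcAGGcccaaccgccgcca

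Under CR31B, footprints of GAP43 and DPYSL2 fell, and no other gene of the 10 passed the test in either direction. GAP43 stood at 43.4% of its DMSO level and DPYSL2 at 59.9%. STMN3 (147% of its DMSO level) and STMN4 (169% of it, at a very low level) were the 2 genes with higher means in CR31B. STMN3 passed only when the replicate number was a term of the fit or when TPM was rescaled over protein-coding genes. The count of 2 called of 10 compares with 7.46% of all genes tested, at a limma adjusted p under 0.05. Both were falls, against 4.02% of all genes called lower and 3.45% called higher. The same 2 genes were the ones whose groups did not overlap, which held for 16.2% of all genes (8.14% lower in CR31B and 8.07% higher). The median log2 fold change of the 10 genes was -0.20, against 0.029 over all genes tested, and 8 of the 10 were below 0. No mRNA libraries were analysed here, so a change in mRNA amount and a change in ribosomes per mRNA cannot be told apart. TPM has the same sum in every library, so the falls and rises given here are changes in a gene's share. A change in total footprints was not measured.

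Levels spanned more than 3 orders of magnitude. STMN1 was far the most abundant, with a mean of 2481 TPM over the 8 libraries and rank 42 among the genes tested. STMN3 (80.5 TPM), DPYSL2 (72.3 TPM), MAP1B (56.6 TPM), DCX (55.4 TPM), DPYSL3 (37.0 TPM), STMN2 (22.8 TPM) and MAP2 (22.7 TPM) followed in mean level, and from STMN3 to MAP2 each gene's range over the libraries overlapped that of the next. GAP43 had a mean of 5.85 TPM, below every library of MAP2, and STMN4 one of 1.61 TPM, below every library of GAP43. The 10 genes took from 0.226% to 0.287% of TPM in the CR31B libraries and from 0.261% to 0.352% in DMSO. STMN1 supplied 85.5% to 89.9% of that sum.

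**Figure D1:**
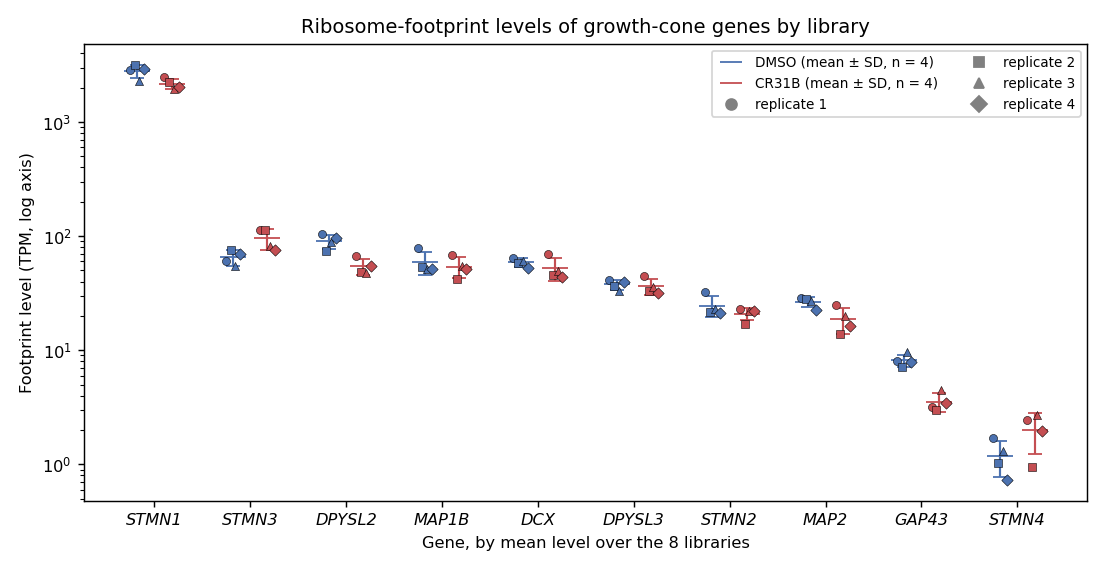
Footprint level in TPM (log axis) of each gene in each library, ordered by mean level; points are libraries (DMSO blue, CR31B red, one shape per replicate number), and bars give the mean ± SD of 4 libraries. The groups do not overlap for DPYSL2 and GAP43, and for all other genes at least 1 library of one group lies within the range of the other.

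GAP43 (ENSG00000172020.13; GRCh38, chromosome 3, 115623324 to 115721490, plus strand) read 3.2, 3.01, 4.48 and 3.47 TPM across CR31B replicates 1 to 4, and 8.06, 7.13, 9.57 and 7.86 TPM across DMSO replicates 1 to 4. Every CR31B library lay below every DMSO library. The means were 3.54 ± 0.654 and 8.15 ± 1.02 TPM (SD, n = 4 each), and the log2 fold change came to -1.02 (SE 0.14, 95% interval from -1.34 to -0.70; limma adjusted p of 0.00354). The exact permutation p, two-sided over the 70 assignments of libraries, was 0.0286, the smallest possible. In the 4 replicate pairs the log2 difference was between -1.11 and -0.95, the narrowest spread among the 10 genes. The call held without each library in turn. Although GAP43 is a low gene here, each library's value rests on roughly 271 to 1083 reads, for a transcript of 1691 nt.

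DPYSL2 (ENSG00000092964.18, chromosome 8), which encodes CRMP2, read 66.8, 48.5, 47.2 and 54.3 TPM across CR31B replicates 1 to 4, and 103.4, 73.9, 88.7 and 95.8 TPM across DMSO replicates 1 to 4. The highest CR31B library was below the lowest DMSO library. Its log2 fold change came to -0.73 (SE 0.15, 95% interval from -1.05 to -0.41; limma adjusted p of 0.0153). Without DMSO replicate 4 the limma adjusted p was 0.0537 at a log2 fold change of -0.70, and with no filter on low genes it was 0.0524, so the call depends on that library and on how many genes are tested. An exon of PNMA2, on the opposite strand, overlaps DPYSL2 exons, and whether counting used strand is not given in the sources used here. PNMA2 moved the other way, from 6.19 to 7.40 TPM over the DMSO libraries to between 20.7 and 38.05 TPM over the CR31B libraries (log2 fold change 1.84, limma adjusted p of 0.000531).

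Its paralog DPYSL3, which encodes CRMP4, read 44.4, 32.9, 36.07 and 31.6 TPM across CR31B replicates 1 to 4, and 41.6, 36.9, 32.8 and 39.6 TPM across DMSO replicates 1 to 4. The groups overlapped throughout, with 2 of 4 pairs higher and 2 lower in CR31B. The log2 fold change was -0.063 with a 95% confidence interval of -0.36 to 0.23 (limma adjusted p of 0.828). The ratio of DPYSL3 to DPYSL2 within a library, taken on TPM + 1, tests the difference between the paralogs directly. At these levels it moves little with the scaling of that library. On the log2 scale it averaged -0.57 ± 0.16 with CR31B and -1.24 ± 0.18 without it (SD over 4 libraries), higher in CR31B in 4 of 4 pairs and without overlap. The exact permutation p was 0.0286, or 0.0762 adjusted over the 8 family pairs compared.

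Among the stathmins, the founding and ubiquitous member STMN1 and the neuronal, membrane-anchored STMN3 had fold changes of opposite sign, neither of which passed the test. STMN1 (ENSG00000117632.23; GRCh38, chromosome 1, 25884181 to 25906991, minus strand) read 2455, 2254, 1945 and 2029 TPM across CR31B replicates 1 to 4, and 2842, 3167, 2263 and 2894 TPM across DMSO replicates 1 to 4. It was lower in 4 of 4 pairs, but DMSO replicate 3 lay within the CR31B range. The log2 fold change came to -0.36 (SE 0.15, 95% interval from -0.69 to -0.025; limma adjusted p of 0.181), and the exact permutation p was 0.0571. STMN3 (ENSG00000197457.10; GRCh38, chromosome 20, 63639705 to 63657682, minus strand) read 114.0, 112.2, 81.9 and 75.3 TPM across CR31B replicates 1 to 4, and 60.09, 76.3, 54.2 and 69.6 TPM across DMSO replicates 1 to 4. It was higher in 4 of 4 pairs, with CR31B replicate 4 just inside the DMSO range. Its log2 fold change came to 0.54 (SE 0.17, 95% interval from 0.17 to 0.91; limma adjusted p of 0.0784), and limma with the replicate block gave an adjusted p of 0.0401.

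The share of each gene in the stathmin footprints was compared as well. STMN3 made up 3.54% to 4.71% of the summed stathmin TPM in CR31B and 2.05% to 2.34% in DMSO, while STMN1 made up 94.5% to 95.3% and 96.7% to 97.0%. The log2 ratio of STMN3 to STMN1 was -4.42, -4.32, -4.55 and -4.73 in CR31B replicates 1 to 4 and -5.54, -5.36, -5.36 and -5.36 in DMSO replicates 1 to 4. The groups were far apart for this ratio: the difference of 0.90 on the log2 scale, or 1.86-fold, was several times the SD within CR31B (0.18) or DMSO (0.092). Its exact permutation p was 0.0286, the smallest possible, or 0.0762 adjusted over the 8 pairs.

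The other neuronal stathmins were lower in level. STMN2, a marker of axon growth and regeneration, read 22.8, 17.1, 22.03 and 21.9 TPM across CR31B replicates 1 to 4, and 32.3, 21.7, 22.9 and 21.4 TPM across DMSO replicates 1 to 4. The groups overlapped, and the single high library, DMSO replicate 1, carried most of the difference: the log2 fold change of -0.21 (95% interval from -0.55 to 0.13; limma adjusted p of 0.461) was -0.075 without it. STMN4 read 2.46, 0.95, 2.7 and 1.97 TPM across CR31B replicates 1 to 4, and 1.71, 1.03, 1.30 and 0.73 TPM across DMSO replicates 1 to 4. Its log2 fold change was 0.44 (95% interval from -0.064 to 0.94; limma adjusted p of 0.277), with CR31B replicate 2 below 3 of the DMSO libraries, from an estimated 116 to 339 reads. The log2 ratio of TPM + 1 of STMN4 to STMN2 was higher in 4 of 4 pairs without overlap, by 0.65 (exact permutation p of 0.0286, 0.0762 adjusted over the 8 pairs). Without the added 1 the groups overlap: CR31B replicate 2 (0.95 over 17.1 TPM) lies below DMSO replicate 3 (1.30 over 22.9 TPM). Of the remaining stathmin ratios, STMN3 to STMN2 differed by 0.75 (exact permutation p of 0.0571), STMN4 to STMN1 by 0.80 (0.0857), STMN2 to STMN1 by 0.15 (0.486) and STMN4 to STMN3 by -0.10 (0.914), with overlapping groups in each.

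**Figure D2:**
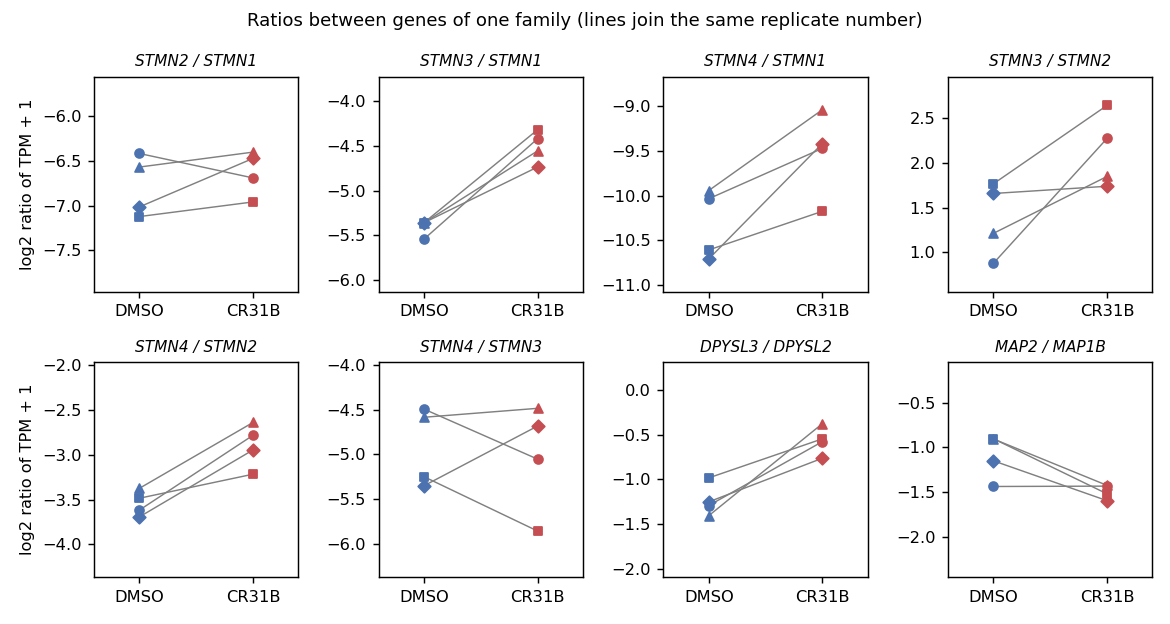
Log2 ratio of TPM + 1 between 2 genes of a family in each library (vertical axes all span the same range), with lines joining libraries of the same replicate number. The ratios STMN3 to STMN1, STMN4 to STMN2 and DPYSL3 to DPYSL2 separate the groups, while STMN2 to STMN1 and STMN4 to STMN3 do not. The separation of STMN4 to STMN2 depends on the added 1.

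None of the 3 lattice-binding proteins passed the test. MAP2, best known from dendrites, read 24.7, 13.96, 19.8 and 16.2 TPM across CR31B replicates 1 to 4, and 28.5, 28.1, 27.1 and 22.7 TPM across DMSO replicates 1 to 4. It was lower in 4 of 4 pairs, and CR31B replicate 1 alone entered the DMSO range. The log2 fold change came to -0.51 (SE 0.17, 95% interval from -0.89 to -0.14; limma adjusted p of 0.0938). Limma gave an adjusted p of 0.0495 under the replicate block and of 0.0325 without CR31B replicate 1, so this gene lies at the threshold.

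MAP1B, prominent in growing axons, read 68.5, 42.0, 55.0 and 51.2 TPM across CR31B replicates 1 to 4, and 79.1, 53.6, 51.7 and 51.8 TPM across DMSO replicates 1 to 4. The groups overlapped, with a log2 fold change of -0.12 (95% interval from -0.52 to 0.28; limma adjusted p of 0.742) whose sign turned to 0.027 without DMSO replicate 1. DCX, which stabilises microtubules in migrating neuroblasts, read 69.3, 45.7, 49.4 and 43.9 TPM across CR31B replicates 1 to 4, and 64.4, 57.6, 61.0 and 52.2 TPM across DMSO replicates 1 to 4. Only CR31B replicate 1 reached the DMSO range, and it exceeded it; the log2 fold change was -0.19 (95% interval from -0.53 to 0.14; limma adjusted p of 0.487). CR31B replicate 1 was the highest CR31B library for all of the 10 genes but GAP43 and STMN4. It also held 61.3% of its TPM in protein-coding genes, where the other 3 of its group held 51.8% to 52.3%, and the part of that share in these values was not tested. The ratio of MAP2 to MAP1B was lower in CR31B by 0.39 on the log2 scale (exact permutation p of 0.0857, 0.114 adjusted over the 8 pairs).

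**Figure D3:**
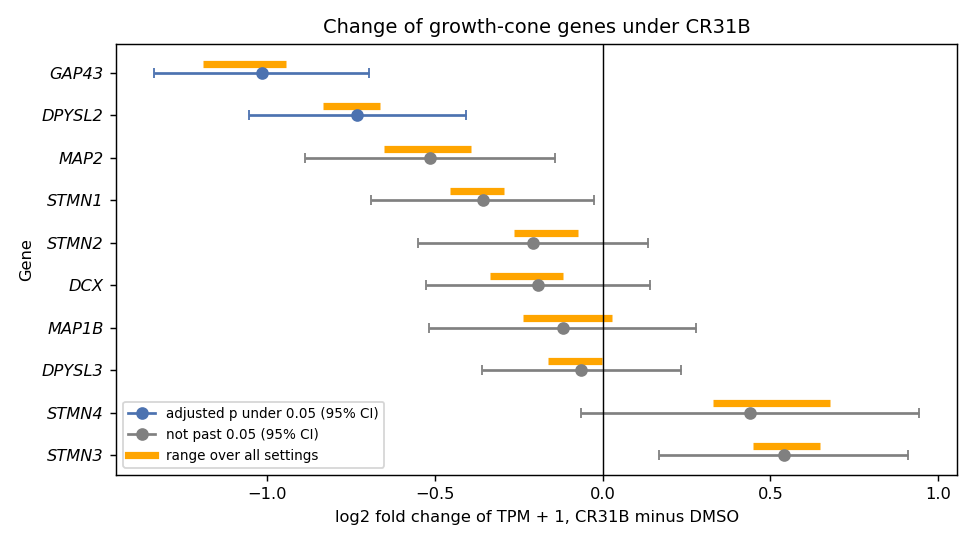
Log2 fold change of TPM + 1 (CR31B minus DMSO) with its 95% confidence interval for each gene; orange bars span the values under every setting tried, including each library left out. The intervals of GAP43 (-1.34 to -0.70) and DPYSL2 (-1.05 to -0.41) lie farthest below 0, and only the orange bar of MAP1B crosses 0.

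In the annotated 5′ UTRs, the genes that fell were those with the longest purine runs. The 5′ UTR of GAP43, 366 nt long, was 81.1% purine and held the run of 40 shown above, a length reached by 0.168% of the 10115 coding genes tested that have an annotated 5′ UTR. The other annotated coding transcript of GAP43 held a run of 31. DPYSL2 held a run of 22, a length reached by 1.82% of genes, although 1 of its 4 coding transcripts had that run and the shortest value among them was 7. DPYSL3 had the next longest, 19 nt (reached by 3.34% of genes), and did not pass the test. STMN3, one of the 2 genes with a higher mean in CR31B, had the shortest, 3 nt, in an 82-nt 5′ UTR of 39.0% purine, but another of its 4 coding transcripts held a run of 10. STMN1, DCX (7 nt each) and STMN2 (9 nt) were near the median of 8 over all genes. STMN4, the other gene with a higher mean in CR31B, had a run of 11, MAP2 one of 12 and MAP1B one of 13, lengths reached by 26.2%, 19.4% and 14.7% of genes. Which transcript IMR32 cells use was not measured, and 10 genes are too few to read a relation from.

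Searched by letters, GAGAGA occurred on the sense strand of the 5′ UTR in 4 of the 10 genes (GAP43, DPYSL2, DPYSL3 and DCX), against 10.8% of coding genes, and on the opposite strand in 5 (DPYSL2, DCX, MAP1B, MAP2 and STMN2), against 9.74%. DCX holds the motif in both directions and was not called, and DPYSL2 also holds it in both. CGG repeated 4 times in a row was in 0 of the 10 on either strand, against 4.01% on the sense and 2.68% on the opposite strand over all genes. A match describes these letters and does not show a binding site. Of the genes with a GAGAGA match, all but DCX (157 nt) had a 5′ UTR longer than the median of 206 nt over all coding genes. The part of length in these matches was not tested. Over all coding genes with a 5′ UTR, 4.21% were called lower and 3.48% higher in CR31B. Among the 338 genes with a run of at least 19 nt, GAP43, DPYSL2 and DPYSL3 included, 13% were called lower and 5.62% higher, and among the 59 with at least 30 nt, GAP43 included, 22% and 5.08%. These lengths were chosen after the values of the 10 genes were seen. The genes with runs of at least 19 nt also had longer 5′ UTRs (median 433.5 nt against 206 nt over all), and the part of length in these shares was not tested.

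**Figure D4:**
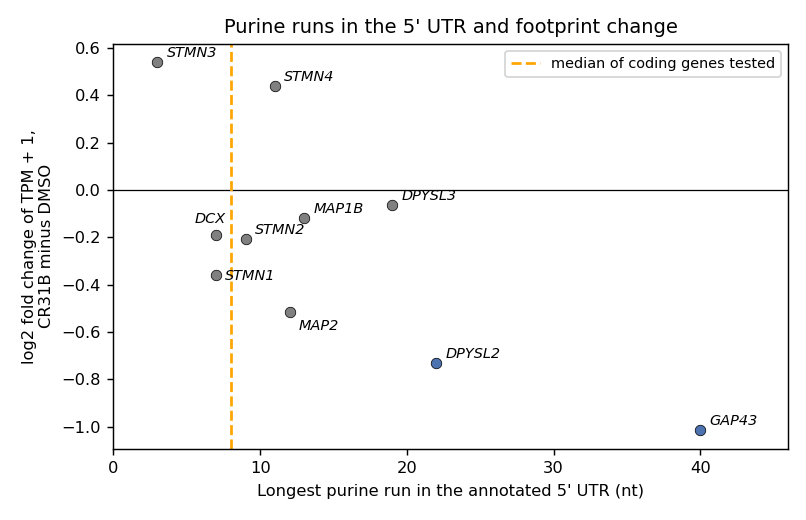
Longest uninterrupted purine run in the annotated 5′ UTR (nt) against the log2 fold change of TPM + 1 for each of the 10 genes, with the median run of all coding genes tested as a dashed line at 8 nt. GAP43 (40 nt) and DPYSL2 (22 nt), in blue, passed the test, and DPYSL3 (19 nt) lies near 0.

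Other genes of the neurite and growth cone were taken from 7 lists by role, 123 genes in all, of which 106 were tested. Of these, 15 fell and 1 rose, or 15.1% against the 7.46% called among all genes, with a median log2 fold change of -0.13. The number of these calls that remained differed by the library left out. Without DMSO replicate 4, 4 of the 16 remained (MAPRE1, SEMA6A, ROBO1 and FYN), and no other of the 106 was called. Calls over all genes tested went from 879 to 405 of 11778. Without CR31B replicate 4, 5 remained, and calls over all genes went to 515. Without CR31B replicate 1, CR31B replicate 3, DMSO replicate 1 and DMSO replicate 2 the numbers that remained were 10, 8, 7 and 7. Calls over all genes in those fits were 779, 631, 502 and 515. None of the 16 changed sign when any 1 library was left out.

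Among the microtubule-associated genes (23 tested), 3 fell and 1 rose, against 4.02% and 3.45% of all genes tested, and 19 were below 0, against 5404 of 11778. Without CR31B replicate 4, DMSO replicate 1 or DMSO replicate 4, 1 gene of the list was called, and without CR31B replicate 1, CR31B replicate 2, DMSO replicate 2 or DMSO replicate 3, 2 were. MAPRE1, which encodes the plus-end-tracking protein EB1 and had the highest mean of the list, had 98.4 ± 6.80 TPM without and 64.3 ± 7.23 TPM with CR31B (SD over 4 libraries; log2 fold change -0.61, limma adjusted p of 0.0112). DCLK1, a kinase with doublecortin domains, had the largest fall of that list, from 6.90 ± 0.609 to 4.14 ± 0.651 TPM (-0.63, limma adjusted p of 0.0217). MAP7D1, the other that fell, was chosen after its value was seen (-0.56, limma adjusted p of 0.0278). Over the 8 fits with a library left out, MAPRE1 kept its call in 8, DCLK1 in 4 and MAP7D1 in 2. MAP4, the widely expressed relative of MAP2 and tau, rose from 28.3 ± 1.10 to 37.6 ± 2.83 TPM (0.40, limma adjusted p of 0.0417), though that call was lost when any 1 library was left out. Of the 3 other CRMP genes, 1 was called lower, against 4.02% of all genes tested. This was DPYSL5 (-0.48, limma adjusted p of 0.0253), while CRMP1, the most abundant of the 3 at 40.7 TPM, had a log2 fold change of -0.35 (limma adjusted p of 0.122). Like DPYSL2, all 3 were below 0, and DPYSL5 lost its call without any 1 of CR31B replicates 3 and 4 or DMSO replicates 1, 2 and 4.

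Of 12 growth-cone membrane genes, 1 was called lower, against 4.02% of all genes tested. MARCKSL1, a protein kinase C substrate like GAP43, fell from 60.6 ± 13.4 to 37.6 ± 6.80 TPM (-0.67, limma adjusted p of 0.0442). Its call was kept in 6 of 17 alternative fits, and in 1 of the 8 among them with a library left out. The fit with the replicate block called 1453 of the 11778 genes tested, against 879 without the block. In it 2 genes of the list passed, the other being the adhesion molecule gene NCAM1 (0.34, limma adjusted p of 0.04999), chosen after its value was seen. CD24, the most abundant of them at 399.8 TPM, had a log2 fold change of 0.0025 (limma adjusted p of 0.992), whose sign turned after median centring and in 4 of the 8 fits with a library left out. No intermediate filament gene passed (0 of 7 by limma). At an unadjusted limma p under 0.05 there were 0 as well, against 2752 of all 11778 genes tested. The most abundant, VIM, had a log2 fold change of 0.077 (limma adjusted p of 0.799). Of 19 actin regulators, 2 were called lower, against 4.02% of all genes tested. PFN1, an actin-monomer-binding profilin, fell from 715.9 ± 35.0 to 481.7 ± 61.8 TPM (-0.58, limma adjusted p of 0.0201). CFL2, chosen after its value was seen, also fell (-0.48, limma adjusted p of 0.0244), whereas its paralog CFL1, at 1801 TPM, had a log2 fold change of 0.020 (limma adjusted p of 0.954), which median centring turned to -0.024; the difference between the paralogs was not tested. PFN1 kept its call in 4 of 8 fits with a library left out and CFL2 in 5, and neither was called without CR31B replicate 4 or DMSO replicate 4. With the replicate block 5 actin regulators were called lower, as were 773 of all 11778 genes tested, against 473 without the block. FSCN1, which encodes the bundling protein fascin, CTTN and ENAH gained the call (limma adjusted p of 0.00627, 0.0153 and 0.0279), all chosen after their values were seen.

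Within the 7 lists, the falls of largest size were in guidance and signalling; over all genes tested, 0.45% had a log2 fold change below that of SEMA6A. SEMA6A, a transmembrane semaphorin, read 2.84, 2.86, 3.01 and 1.35 TPM across CR31B replicates 1 to 4, and 7.09, 8.18, 6.00 and 9.46 TPM across DMSO replicates 1 to 4 (log2 fold change -1.32 with SE 0.20; limma adjusted p of 0.00470). FYN, a Src-family kinase that acts in semaphorin and netrin signalling, read 7.91, 6.58, 8.60 and 6.67 TPM across CR31B replicates 1 to 4, and 20.2, 19.2, 18.4 and 18.2 TPM across DMSO replicates 1 to 4 (-1.25, SE 0.12, limma adjusted p of 0.000562). For both genes the groups were well apart. Of the 17 guidance genes tested, ROBO1, a Slit receptor, and NRP2, a semaphorin co-receptor, fell as well (-1.13 and -0.57, limma adjusted p of 0.00418 and 0.0325; both chosen after their values were seen). With SEMA6A, the guidance list had 3 falls, against 4.02% of all genes called lower. ROBO1 kept its call in 8 of 8 fits with a library left out, and NRP2 in 1. The median of that list was 0.15, and its most abundant member NRP1 had a log2 fold change of 0.15 (limma adjusted p of 0.611). Of the 25 kinases, phosphatases and GTPases, 5 fell: beside FYN these were PPP2CA, MAPK9, PAK1 and CDK5R1, the activator of CDK5 (-0.74, -0.59, -0.55 and -0.48, limma adjusted p of 0.0147, 0.0318, 0.0317 and 0.0333), chosen after their values were seen. The 5 falls compare with 4.02% of all genes called lower. With a library left out, FYN kept its call in 8 of 8 fits, PPP2CA in 7, MAPK9 in 3, PAK1 in 2 and CDK5R1 in 0. The list had 1 call without DMSO replicate 4, 2 without CR31B replicate 4, DMSO replicate 1 or DMSO replicate 2, and 3 without CR31B replicate 1. RHOA, the most abundant, had a log2 fold change of 0.14 (limma adjusted p of 0.561). The 15 genes of these lists that fell had a median longest purine run of 9 nt and a maximum of 17 nt. The 89 that were not called and have an annotated 5′ UTR also had a median of 9 nt, and a maximum of 38 nt.

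**Figure D5:**
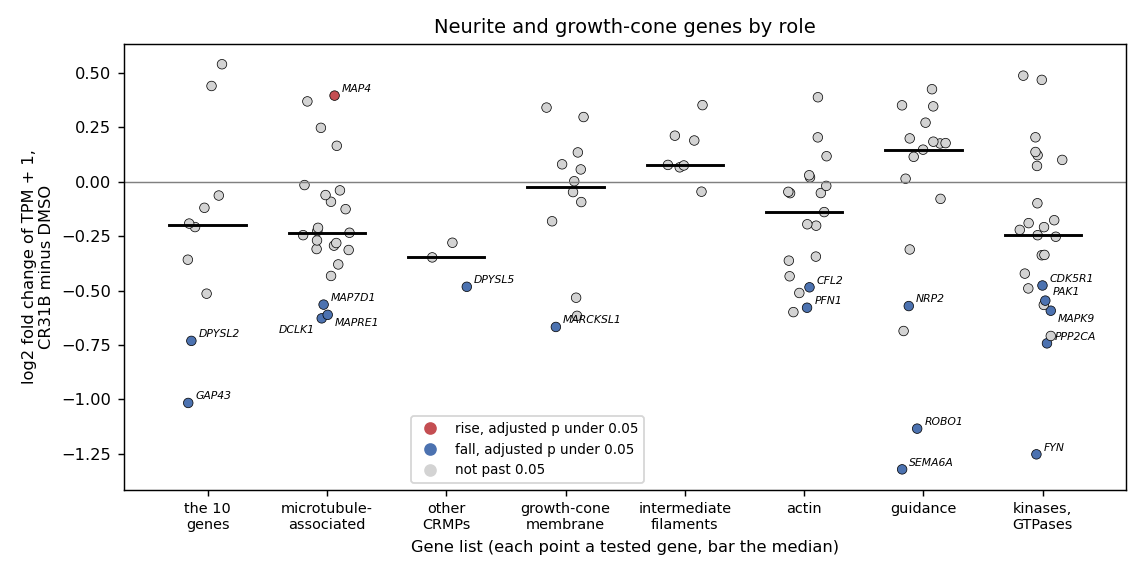
Log2 fold change of TPM + 1 (CR31B minus DMSO) of each tested gene, by list, with the list median as a bar; blue and red points passed a limma adjusted p of 0.05 and are named. The points of SEMA6A, FYN and ROBO1 lie lowest, followed by GAP43, and MAP4 is the only red point.

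Over the 8 libraries, the genes whose log2 levels followed STMN1 most closely, among 5605 with a mean of at least 10 TPM, were CALM2 (Pearson r of 0.981), PSMC6 (0.970) and MORN2 (0.963). With the group means removed they were GTF3A (0.986), FABP5 (0.985) and RPL31 (0.979). Each list holds the 3 highest of 5605 values, so high r comes in part from that choice, and lists this short would seldom share a gene. These values describe 8 libraries that also share scaling and replicate effects.

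The labelled cell type was compared with marker genes. Of 11 adrenergic neuroblast markers, 10 had a mean of at least 1 TPM, with a summed level of 706.9 to 806.2 TPM in CR31B and 648.2 to 819.75 TPM in DMSO. TH was the one below 1 TPM. Of 10 mesenchymal and Schwann cell markers, 3 had a mean of at least 1 TPM. These were COL1A1 (means of 7.9 TPM in CR31B and 10.7 TPM in DMSO), FN1 (4.6 and 4.6 TPM) and CD44 (1.2 and 1.3 TPM). That list summed to 11.3 to 25.2 TPM over all libraries, with PRRX1 and SOX10 at 0. The 4 leukocyte markers summed to at most 0.22 TPM, with CD3E at 0. The labels give brain as the tissue and neuroblast as the cell type. The 6 glial markers summed to 1.79 to 3.26 TPM in CR31B and 3.95 to 6.57 TPM in DMSO, nearly all of it SLC1A3, with MOG and OLIG2 at 0.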

How the data were processed

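Ribosome-protected fragments (28 to 30 nt) of 8 IMR32 libraries were read as single ends of 76 bp in 2 sequencing runs, per the labels' protocols; the run of each library is not given there. The authors deposited TPM per gene. The submitters' processing notes name cutadapt 3.2, Bowtie2 2.3.4.1, STAR 2.7.1a, RSEM 1.2.28 and DESeq2 1.32.0 and the build GRCh38, with no role or order; the annotation release and strand setting are not given in the sources used here. Since TPM sums to one total everywhere, more of one RNA class means less of the rest.

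Symbols were found for 60481 rows and GENCODE 29 gene types for 58405, with ID versions ignored. Values were fitted as log2(TPM + 1), a scale that understates changes of low genes, with limma (version 3.58.1, R version 4.3.3; mean-variance trend, treatment as the only term) for genes averaging 1 TPM or more, with Benjamini-Hochberg adjustment over all 11778. On 5 simulated tables of 11778 genes for this comparison, 200 genes were changed, with noise independent between genes and libraries. Of genes changed by 0.5, 1 and 2 on the log2 scale, 13.3%, 76.0% and 96.3% were recovered, and 3.62% of calls were false. The data held 879 calls and correlated replicate numbers, so these shares are only a rough guide to them. Ratios within families, taken on TPM + 1, were compared by two-sided exact permutation tests. For a low gene such as STMN4 the added 1 weighs on the ratio. Reads were estimated from the TPM steps of genes with 1 transcript of 300 to 1200 nt, where 46.3% to 56.6% of low values lay within 0.15 of a whole read, so these numbers are rough. A 5′ UTR is that of 1 complete coding transcript per gene, chosen by APPRIS rank, then coding length. Python version 3.11.15 with pandas 2.3.3, NumPy 2.4.6 and matplotlib 3.10.9 served for the rest.

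Replicate numbers occur in both groups. After group means were removed, same-numbered libraries correlated across genes at 0.333, 0.324, 0.301 and 0.105, against a median of -0.123 for different numbers, so an alternative fit took the numbers as pairs (the replicate block). The 10 genes and the lists were chosen with earlier results of these data known. Named were all 10 genes and, from each list, the called members with the largest rise and fall and the member with the highest mean; others are marked as chosen after their values were seen. Alternatives covered the pseudocount, the filter, scaling, the trend, the replicate block and each library left out.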

Additional observations from a re-analysis of the deposited data

Results flagged for a closer look

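A library stood apart from the other 3 of its group, by a gap to the nearest of more than 0.829 of the group's range, in 7 of 64 groups of 4 examined; chance alone gives about 5% of groups. In DMSO replicate 1, STMN2 was at 32.29 TPM against 21.4 to 22.86 TPM, MAP1B at 79.09 TPM against 51.72 to 53.58 TPM, NRP1 at 81.22 TPM against 60.28 to 62.76 TPM, and the log2 ratio of STMN3 to STMN1 was -5.54 against -5.36 in each of the others. CR31B replicate 2 had a low STMN2 value of 17.13 TPM, the others of its group 21.88 to 22.79 TPM. PFN1 was at 767.9 TPM in DMSO replicate 4, against 694.6 to 705.1 TPM, and CR31B replicate 4 had 1.35 TPM of SEMA6A, the others of its group 2.84 to 3.01 TPM. Of these, the MAP1B value set the sign of that gene's fold change, and the PFN1 and SEMA6A values lay on the far side from the other group.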

How the results depend on the processing

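Of the fold changes of the 10 genes under alternatives, 158 kept their direction and side of the threshold, 2 lost the call, 7 gained it and 1 reversed. GAP43 was called wherever it was tested (its mean is below the 10 TPM filter). DPYSL2 lost its call with no filter (-0.73, limma adjusted p of 0.0524), and over the libraries left out it ran from -0.83 to -0.66. STMN3 passed with the replicate block (0.54) and rescaled over protein-coding genes (0.58). MAP2 passed with the block (-0.51), rescaled (-0.49), median-centred (-0.56) and after quantile normalization (-0.55), and ran from -0.65 to -0.39 with a library left out, as MAP1B did from -0.24 to 0.027. The count called of the 10 was 1 with no filter, 1 at a mean of at least 10 TPM, 4 rescaled, 4 with the replicate block and 1 to 3 with a library left out. Of the list genes, 16 were called, against 22 with the replicate block, 22 median-centred, 7 with no filter and 4 to 12 with a library left out; median centring raised the kinase list from 5 to 8. The replicate block ended no call and changed no other call of the 10; within pairs no ratio can go below an exact permutation p of 0.125. The STMN4 to STMN3 difference turned positive with pseudocounts of 0.1 (0.13) and 0.5 (0.0017) and ran from -0.28 to 0.18 with a library left out. CD24 and CFL1 turned negative after median centring (-0.041 and -0.024); with a library left out CD24 ran from -0.068 to 0.097, CFL1 from -0.047 to 0.10 and VIM from -0.017 to 0.19. Over all genes, 879 of 11778 were called, against 1453 with the block, 1177 median-centred, 1174 after quantile normalization and 405 to 785 with a library left out. Where other sets of genes were tested, 442 of 28564 were called with no filter, 640 of 5613 at a mean of at least 10 TPM and 1238 of 10382 rescaled. The counts of the 10 genes and of the lists are to be read beside these totals. With 4 libraries a group, few changes of 0.5 on the log2 scale were recovered in the simulated tables, so the genes not called are not shown to be unchanged.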
